A study of Mus musculus with 9 samples.

Results

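Interferon-stimulated genes are switched on when a cell senses interferon, the cytokine that signals viral infection. A list of 35 such genes was followed through β-catenin-driven thymic tumours of the mouse. On the arrays, 33 of the 35 were named by a probe set that carries 1 gene symbol. The brightest such probe set over the 9 arrays represented each gene. Of the 33, 31 were bright enough to be tested among 11644 genes. Oas3 and Oasl2 were too dim, Isg15 was named only together with the predicted gene Gm9706, and Ifi44 had no probe set of its own, so that neither Isg15 nor Ifi44 has a value here.

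All 9 mice were C57Bl/6 mice that carried the R26NC/NC allele, a β-catenin transgene that Cre recombinase switches on, and each gave 1 array. The tumour group held 4 unsorted thymic tumours of R26NC/NC CD4Cre+ mice aged 28, 26, 23 and 21 weeks (tumours 1 to 4), of which at least 95% of cells carried CD8 and CD4. The pre-transformed group held sorted CD4+CD8+ double-positive (DP) thymocytes, over 98% pure, of 3 R26NC/NC CD4Cre+ mice aged 6 weeks. The control group held the same sorted cells of 2 R26NC/NC CD4Cre- mice aged 6 weeks. Cre stood under Cd4 control, so that every cell from the DP stage onward could recombine, and no group carried Cre without the allele. Tumour RNA was labelled from 2.5 µg by the standard protocol and sorted-cell RNA from 0.1 µg with an amplification kit. Age, sorting and labelling therefore went with the tumour group and cannot be told apart from transformation.

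Type I interferon binds a receptor of the chains Ifnar1 and Ifnar2, and the kinases Jak1 and Tyk2 then activate Stat2. Stat2 and Irf9 are parts of the complex ISGF3, which binds the interferon-stimulated response element (ISRE) in the promoters of its target genes. Many targets act against viral RNA, others are themselves sensors or transcription factors of the pathway, and Usp18 holds the receptor back. In the thymus a basal interferon tone exists without infection, and thymocytes respond to it as they mature.

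The sequences below are shown because they carry the element that ISGF3 binds. They are upstream stretches of 3 genes that varied widely between mice, together with Stat2, a part of ISGF3 itself. They come from RefSeq (GRCm38.p6) and end before the transcription start. Capitals mark the ISRE core GAAANNGAAA, on the strand of the gene or on the opposite strand, and cores that overlap run together.
Ifit1 (chr19:34640765-34640814, plus strand): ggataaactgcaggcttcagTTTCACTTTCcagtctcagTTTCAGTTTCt
Rsad2 (chr12:26456543-26456592, minus strand): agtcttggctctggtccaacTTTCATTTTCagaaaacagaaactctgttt
Bst2 (chr8:71537573-71537622, minus strand): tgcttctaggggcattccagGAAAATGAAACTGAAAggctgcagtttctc
Stat2 (chr10:128270256-128270305, plus strand): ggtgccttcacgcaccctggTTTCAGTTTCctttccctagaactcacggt

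The core was present in the windows (250 bases before to 50 after a start) of 12 of the 27 listed genes that had one, a share of 44.4%, against 3.99% of 27025 mouse genes. The motif TTCNNNGAA, searched on both strands, was present in 8 of the 27 (29.6%) against 9.55% of all genes. A match describes letters in the window and no binding was measured. The other 8 listed genes, Usp18 and Rtp4 among them, had no window in the table used.

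In the tumours the interferon-stimulated genes stood low. Of the 31 tested, 17 fell relative to pre-transformed thymocytes and 1, Samhd1, rose (adjusted p under 0.05, limma with Benjamini-Hochberg adjustment over 11644 genes). Tumours differed from pre-transformed cells in 54.9% of all genes tested, with 23.9% called higher and 31% called lower, and the 54.8% of interferon-stimulated genes called lower is read against that last share. The median log2 change was -1.57 over the 31 genes and -0.12 over all genes tested. On 19 of the 31 genes (61.3%) all 4 tumour arrays read below all 3 pre-transformed arrays, which held for 32.1% of all genes.

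Against controls the picture was similar, with the same 4 tumour arrays on top. Relative to controls 13 genes fell and 2 rose, Samhd1 and Ifit3, where 45.7% of all genes were called, 20.5% higher and 25.2% lower. The median was -1.02 for the interferon-stimulated genes and -0.08 for all genes tested. Every tumour array lay below both control arrays for 17 of the 31 genes, and for 33.1% of all genes. Many of these calls rested on both controls. Without control 1, 5 genes were called lower, beside 22.2% of all genes called in either direction, and Zbp1, Irf9, Irf1, Trim25, Parp14, Adar, Xaf1 and Rtp4 no longer passed (adjusted p = 0.063 to 0.282). Without control 2, 8 were called lower, beside 27.2% of all genes called, and Zbp1, Trim25, Parp14, Adar and Rtp4 no longer passed (adjusted p = 0.051 to 0.152).

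Before transformation no interferon-stimulated gene was called, in a comparison where 1.63% of all genes were. At an unadjusted p under 0.05 limma gave 6 genes higher (19.4%) and 0 lower, beside 9.7% of all genes higher. Pre-transformed means lay above control means for 27 of the 31 genes, with a median log2 difference of 0.39 against 0.02 over all genes. All 3 pre-transformed arrays exceeded both control arrays for 7 genes (22.6%), and for 20.6% of all genes, a share near the background. The median difference rested on single mice: it was 0.08 without pre-transformed 2 and 0.12 without control 2.

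**Figure D1:**
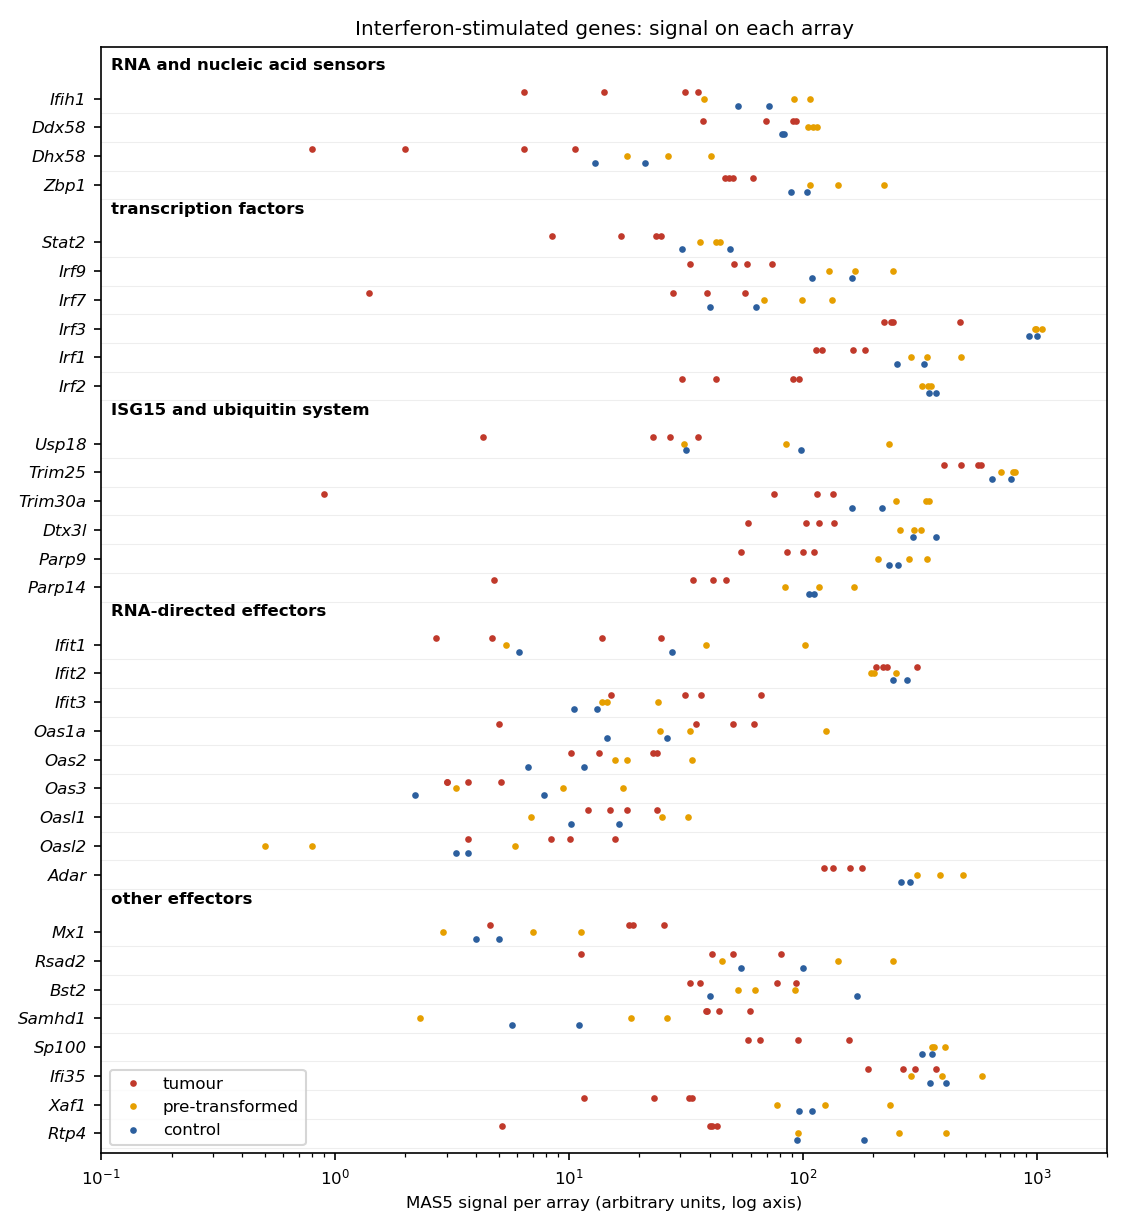
MAS5 signal (log axis, arbitrary units) of the 33 interferon-stimulated genes with a value, by role, 1 point per array for 4 tumours, 3 pre-transformed and 2 control mice. Tumour points lie to the left of the others for most sensors, transcription factors and ubiquitin-system genes, while Samhd1 tumour points, at 38.5 to 59.5, lie to the right of all others.

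**Figure D2:**
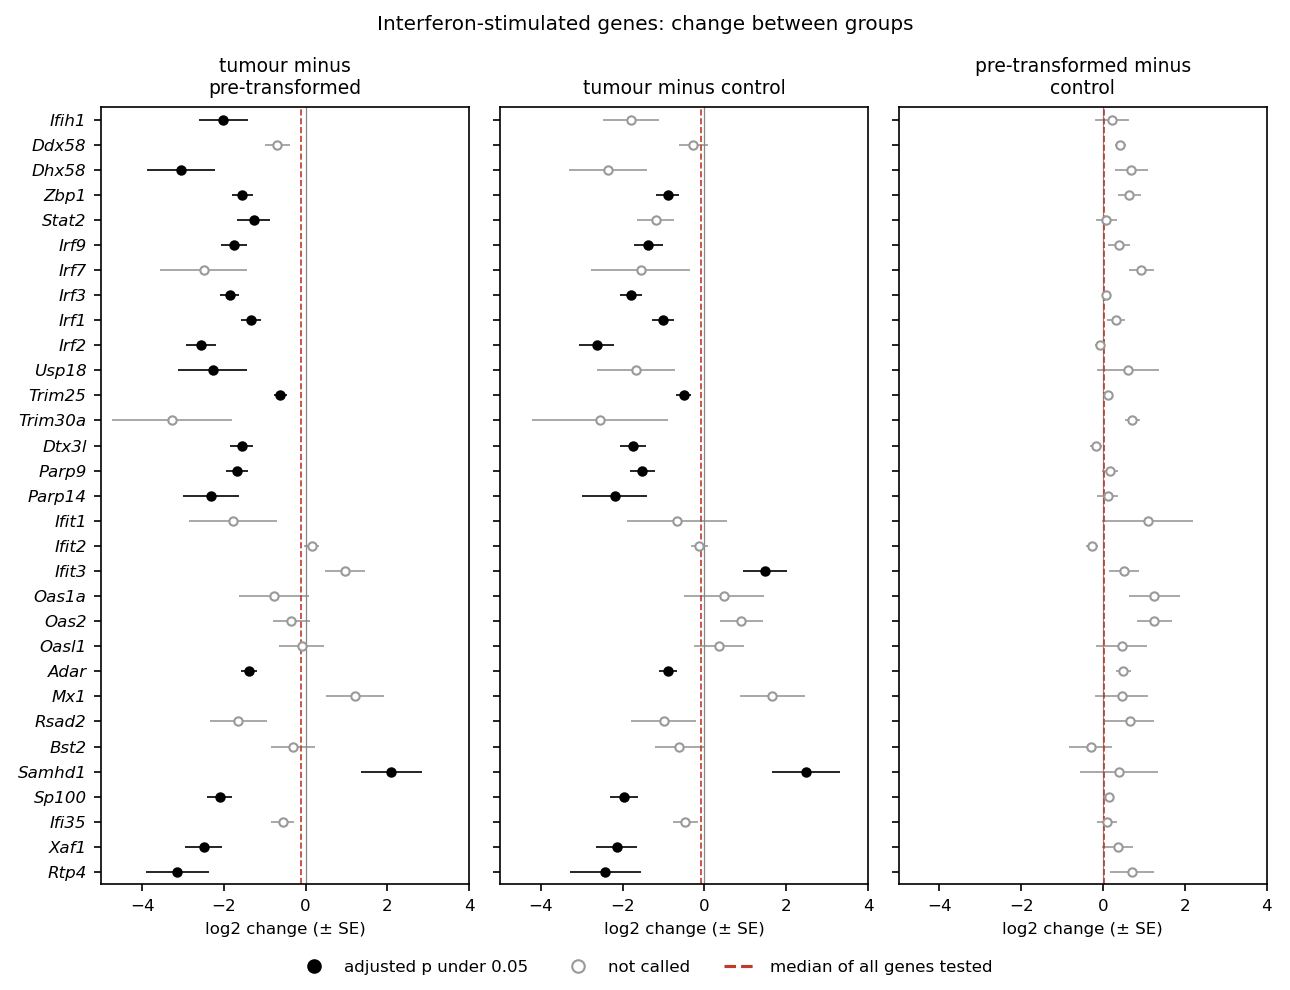
Log2 change with its standard error of the 31 genes tested, in order of role, for tumour minus pre-transformed (left), tumour minus control (middle) and pre-transformed minus control (right). Filled points have an adjusted p under 0.05, 18, 15 and 0 of them from left to right, and the dashed line is the median of all genes tested.

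Among the sensors, 3 of 4 fell in tumours against pre-transformed cells, where 31% of all genes did. Ifih1 encodes MDA5, the sensor of long double-stranded RNA. It read 14.1, 6.4, 31.4 and 35.7 in tumours 1 to 4, against 37.9, 107 and 91.9 in pre-transformed mice 1 to 3 and 72 and 53.1 in controls 1 and 2. Every tumour lay below every sorted sample, although tumour 4 came close to pre-transformed 1. The log2 change was -2.01 (SE 0.60, adjusted p = 0.0165) against pre-transformed cells and -1.79 (adjusted p = 0.0527) against controls. Here and below a group is called dim when each of its arrays reads below its own 65th percentile of signal (28.5 to 44.6). A fold against a dim group is given as a lower bound, with each dim array set to the higher of that percentile and its own signal. By that rule Ifih1 was at least 2.01-fold lower in tumours, and its adjusted p was 0.0716 without pre-transformed 2 and 0.0636 without pre-transformed 3.

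Dhx58 encodes LGP2, which regulates MDA5 and RIG-I. It read 6.4, 0.8, 2 and 10.6 in the tumours, against 17.8, 40.5 and 26.5 in pre-transformed mice and 21.2 and 12.9 in controls. The groups of tumours and sorted cells did not overlap, but all 3 groups were dim, so that no fold is given (log2 change -3.05, SE 0.83, adjusted p = 0.0109 against pre-transformed cells, and 0.05002 without pre-transformed 2). Its other 2 probe sets, which did not pass the filter on low signals, went the other way (0.62 and 1.64). Zbp1, the sensor of Z-form nucleic acids, had a mean of 51.4 (SD 0.18 on the log2 scale, n = 4) in tumours, 150.2 (SD 0.53, n = 3) in pre-transformed cells and 96.0 (SD 0.16, n = 2) in controls. It fell in both comparisons (log2 change -1.55, adjusted p = 0.000718, and -0.90, adjusted p = 0.0293), and against controls its adjusted p was 0.185 without control 1 and 0.0935 without control 2. Ddx58, which encodes RIG-I, averaged 68.5 in tumours, 110.5 in pre-transformed cells and 82.4 in controls and was not called (adjusted p = 0.0786 against pre-transformed cells).

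Of the 6 transcription factors, 5 were called lower than in pre-transformed cells (31% of all genes were) and 4 lower than in controls (25.2% of all genes). Stat2, the ISGF3 subunit whose promoter is shown above, read 8.5, 24.7, 23.6 and 16.7 in tumours, against 36.4, 42.6 and 44.3 in pre-transformed mice and 49 and 30.5 in controls. No tumour reached any sorted sample, yet the signal was low throughout. The log2 change was -1.27 (SE 0.40, adjusted p = 0.0217, at least 1.14-fold lower) against pre-transformed cells and -1.19 (adjusted p = 0.055) against controls. A second Stat2 probe set went the other way in tumours against pre-transformed cells, and the mean of both gave -0.51 (adjusted p = 0.23). Leaving out pre-transformed 2 or 3 gave an adjusted p of 0.0653 or 0.0723 for the brighter probe set. Quantile normalization gave 0.0737 and the replicate number as a block 0.0524. With a common floor for dim values the log2 change was 0. Of the pre-transformed arrays, only that of mouse 2 (42.6) reached its own 65th percentile (42.2).

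Irf9, the DNA-binding subunit of ISGF3, read 51, 33, 73.7 and 57.8 in tumours, against 129.4, 242.5 and 167.9 in pre-transformed mice and 163.2 and 109.2 in controls. The highest tumour stayed under the lowest control. Its log2 change was -1.75 (SE 0.32, adjusted p = 0.00116) against pre-transformed cells and -1.37 (adjusted p = 0.0117) against controls.

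Irf2, which binds the same element and restrains interferon-dependent transcription, was separated widely between tumours and sorted cells. It read 42.4, 30.4, 96.2 and 90.4 in tumours, against 354, 343.8 and 324.7 in pre-transformed mice and 372.2 and 348.2 in controls. The 5 sorted samples lay close together, and the tumours lay far below them in 2 pairs. Log2 changes were -2.56 (SE 0.37, adjusted p = 0.000317) and -2.64 (adjusted p = 0.000945) against the pre-transformed and control groups. Its probe set carries a suffix that marks possible cross-hybridisation with related transcripts. Irf3, the factor that RNA and DNA sensors activate, averaged 279 in tumours, 1014 in pre-transformed cells and 966 in controls (log2 change -1.86, adjusted p = 0.000159 against pre-transformed cells). All 4 Irf3 probe sets were lower in tumours. Irf1, which interferon γ induces strongly, averaged 143 in tumours, 361 in pre-transformed cells and 289.8 in controls and was called lower in both comparisons (adjusted p = 0.00107 and 0.0121).

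Irf7, the factor that amplifies type I interferon production, was the factor not called. Its signals were 27.8, 1.4, 56.8 and 38.9 in tumours, against 68.5, 133 and 99.1 in pre-transformed mice and 63.4 and 40.3 in controls. Tumour 2 was almost without signal while tumour 3 exceeded control 2. The spread among tumours was large (SD 2.45 on the log2 scale), and the log2 change of -2.50 (SE 1.06) had an adjusted p of 0.0694. Irf7 was also one of the 7 genes whose pre-transformed arrays all exceeded both controls, with a log2 difference of 0.94 (SE 0.30, adjusted p = 0.163).

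Isg15 is a ubiquitin-like protein that is attached to other proteins after interferon, and the next group reads, attaches or removes such tags. Of its 6 genes with a value, 5 fell against pre-transformed cells (31% of all genes did) and 4 against controls (25.2% of all genes). Usp18, the protease that removes ISG15 and blocks the receptor, read 35.8, 4.3, 27 and 22.8 in tumours, against 31, 233.6 and 84.7 in pre-transformed mice and 98.1 and 31.8 in controls. Tumour 1 exceeded both pre-transformed 1 and control 2, so the groups overlapped. The log2 change of -2.28 (SE 0.84, adjusted p = 0.0411) depended on single arrays: its adjusted p was 0.0643 without tumour 2, 0.058 without tumour 4, 0.176 without pre-transformed 2 and 0.0945 without pre-transformed 3.

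Parp14, an ADP-ribosyltransferase, read 34, 4.8, 41.3 and 47 in tumours, against 84.2, 164.9 and 117.9 in pre-transformed mice and 111.2 and 106.2 in controls. No tumour came near a sorted sample, and tumour 2 lay far below the other tumours. The log2 change was -2.31 (SE 0.69, adjusted p = 0.0172) against pre-transformed cells, with an adjusted p of 0.0677 without pre-transformed 2, and -2.20 (adjusted p = 0.0432) against controls. Against controls the adjusted p was 0.0526 without tumour 1, 0.172 without control 1 and 0.152 without control 2. The mean of the 2 Parp14 probe sets gave -1.40 (adjusted p = 0.0973) against pre-transformed cells and -1.02 (adjusted p = 0.285) against controls.

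Dtx3l and Parp9 encode an E3 ligase and its partner, which act as a complex, and their genes overlap on chromosome 16 beside Parp14. Dtx3l averaged 98.8 in tumours, 293 in pre-transformed cells and 331 in controls. Parp9 averaged 85.2 in tumours, 273 in pre-transformed cells and 243 in controls. Both fell in both comparisons, with log2 changes of -1.57 and -1.68 against pre-transformed cells (adjusted p = 0.000926 and 0.000529). Trim25, the ligase that activates RIG-I, stayed bright, with means of 498 in tumours, 768 in pre-transformed cells and 708 in controls, and its log2 change of -0.63 was the smallest called against pre-transformed cells (adjusted p = 0.0074). Its 3 probe sets did not agree in direction, and their mean gave -0.12 (adjusted p = 0.704). Trim30a, a mouse ligase that interferon induces, read 75.7, 0.9, 114.7 and 134.7 in tumours, against 249.8, 348.2 and 336.8 in pre-transformed mice and 217.7 and 161.8 in controls. Every tumour was below every sorted sample, but tumour 2 alone widened the spread to an SD of 3.45 and the change was not called (adjusted p = 0.0812).

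Of 7 genes tested that act directly on RNA, 1 was called lower in each tumour comparison. Of all genes, 31% were called lower against pre-transformed cells and 25.2% against controls. Adar, which edits adenosine in double-stranded RNA to inosine, averaged 148 (SD 0.24, n = 4) in tumours, 387 (SD 0.32, n = 3) in pre-transformed cells and 275 (SD 0.09, n = 2) in controls. It fell by 1.39 on the log2 scale against pre-transformed cells (adjusted p = 0.000284) and by 0.89 against controls (adjusted p = 0.00936). The mean of its 3 probe sets gave -0.45 against controls (adjusted p = 0.151). Ifit2, one of the tetratricopeptide proteins that bind viral RNA, was bright and level, with means of 238 in tumours, 214 in pre-transformed cells and 259.8 in controls (adjusted p = 0.514 and 0.636). Its neighbour on chromosome 19, Ifit3, read 36.8, 15.2, 66.4 and 31.5 in tumours, against 14.6, 24 and 13.8 in pre-transformed mice and 13.2 and 10.5 in controls. All tumours exceeded both controls, though both sorted groups were dim. Its rise of 1.48 on the log2 scale against controls (SE 0.54, adjusted p = 0.047) had an adjusted p of 0.083, 0.0793 and 0.0683 without tumour 1, 3 or 4 and of 0.136 and 0.21 without control 1 or 2. Whether the higher array background of tumours had a part was not tested. In bacterial probe sets with no added target the highest signal was 7.8 to 13.9 on tumour arrays and 2.4 to 5 on sorted arrays.

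Ifit1 and the oligoadenylate synthetases, which make the activator of RNase L, varied widely within groups. Ifit1 read 4.7, 2.7, 24.7 and 13.9 in tumours, against 5.4, 102.3 and 38.7 in pre-transformed mice and 27.6 and 6.1 in controls. Oas1a read 35, 5, 50.2 and 61.7 in tumours, against 24.6, 125.4 and 33 in pre-transformed mice and 26.2 and 14.6 in controls. Both groups of sorted cells overlapped with the tumours for these genes, and neither was called in any comparison. Oas2 and Oasl1 were dim in all 3 groups, with means of 8.82 to 21.1 and 12.9 to 17.8. The Oas3 signal was 2.2 to 17.1 and the Oasl2 signal 0.5 to 15.8 over the 9 arrays, too low to be tested.

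Of 8 other effectors, 3 fell in both tumour comparisons and 1 rose in both. Of all genes, 31% fell and 23.9% rose against pre-transformed cells, and 25.2% fell and 20.5% rose against controls. Rtp4, an interferon-induced chaperone of receptors, read 40.1, 5.2, 40.8 and 43 in tumours, against 95.4, 409.6 and 259 in pre-transformed mice and 183.3 and 94.6 in controls. The tumours lay below all sorted samples, with 3 of them within a narrow range. Its log2 change of -3.14 (SE 0.76) against pre-transformed cells had an adjusted p of 0.00604. Against controls it fell by 2.42 (adjusted p = 0.0427), and the adjusted p was 0.244 without control 1 and 0.0921 without control 2. Its 2 probe sets did not agree in direction.

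Xaf1, a partner of the apoptosis inhibitor XIAP, read 23.2, 11.6, 32.6 and 33.6 in tumours, against 77.8, 235.9 and 124 in pre-transformed mice and 109.3 and 96.7 in controls. It was at least 3.67-fold lower than in pre-transformed cells (a log2 change of -2.50, SE 0.45, adjusted p = 0.00108) and at least 2.87-fold lower than in controls (adjusted p = 0.00695). The mean of its 2 probe sets gave -0.86 against controls (adjusted p = 0.1). Sp100, a scaffold of PML nuclear bodies, read 65.8, 58.2, 157 and 95.3 in tumours, against 355.9, 403.9 and 365.4 in pre-transformed mice and 322.8 and 356.4 in controls. The sorted samples were close to one another and far above the tumours (log2 change -2.11, SE 0.30, adjusted p = 0.000304 against pre-transformed cells, and -1.96, adjusted p = 0.00154 against controls).

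Samhd1 cleaves deoxynucleotides and so limits the replication of retroviruses, and it was the one gene called higher against both sorted groups. It read 38.9, 43.8, 38.5 and 59.5 in tumours, against 26.3, 18.5 and 2.3 in pre-transformed mice and 11 and 5.7 in controls. On this probe set the tumours were even and higher, while the sorted samples were dim and scattered. The log2 change was 2.10 (SE 0.73, adjusted p = 0.0337, at least 1.02-fold) against pre-transformed cells and 2.49 (SE 0.83, adjusted p = 0.0332, at least 1.09-fold) against controls. All 5 Samhd1 probe sets were higher in tumours. The call against pre-transformed cells did not hold without tumour 1, 3 or 4 (adjusted p = 0.0557, 0.0526 and 0.0728) or without pre-transformed 3, where the change was 1.01 (adjusted p = 0.0727). Against controls it did not hold without tumour 1 or 4 (adjusted p = 0.053 and 0.0652) or without control 1 or 2 (adjusted p = 0.0844 and 0.2). The brightest probe set without a cross-hybridisation suffix gave 0.89 (adjusted p = 0.123) against pre-transformed cells. Dimmer ones that passed the filter gave 3.04 and 2.00, with no test of their own. On these, tumour 2 read 28.1 and 16.2, against 60.5 to 75.8 and 37.6 to 69.3 in the other tumours.

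The remaining effectors passed no test. Rsad2, which encodes viperin, read 40.9, 11.3, 50.4 and 80.8 in tumours, against 45.3, 242.4 and 140.9 in pre-transformed mice and 100.5 and 54.3 in controls. Bst2, or tetherin, read 93.7, 32.8, 77.6 and 36.5 in tumours, against 52.6, 92.8 and 62.3 in pre-transformed mice and 170.5 and 40.3 in controls. For both genes the groups overlapped, and within controls alone Bst2 differed by 4.23-fold. Ifi35 averaged 275 in tumours, 405 in pre-transformed cells and 379.8 in controls (adjusted p = 0.105 against pre-transformed cells). Mx1, a GTPase that blocks influenza virus and is disrupted in C57BL/6 mice, was dim in every group, with means of 14.1 in tumours, 6.12 in pre-transformed cells and 4.47 in controls.

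Inside each group the genes shared an order of mice. Among pre-transformed mice, mouse 2 read highest for 26 of the 31 genes (83.9%, against 37.6% of all genes) and mouse 1 lowest for 24 (77.4%, against 33.1%). The full order of mouse 2 over mouse 3 over mouse 1 held for 23 of the 31 genes and for 19.9% of all genes. Control 1 exceeded control 2 for 29 of 31 (93.5%, against 47.7%). Tumour 2 read lowest of the tumours for 22 of 31 (71%, against 28.9%). With quantile normalization tumour 2 was lowest for 20 genes, pre-transformed mouse 2 highest for 27 and mouse 1 lowest for 25, and control 1 higher for 28. With each array centred on its median these counts were 18, 26, 29 and 26. The genes are not independent, and these shares describe 9 animals, with no test.

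The differences between mice of 1 group were several-fold for some genes. Rsad2 was 5.35-fold and Rtp4 4.29-fold brighter in pre-transformed mouse 2 than in mouse 1. For Ifit1, Usp18 and Oas1a the signal of mouse 1 lay below the 65th percentile of its array, so that no fold is given. Mouse 2 read at least 2-fold higher than mouse 1 for 13 of the 31 genes (41.9%) and 3.96% of all genes. It read at least 2-fold lower for 0 of the 31 and 4.68% of all genes. Tumour 2 lay at least 2-fold below the mean of the other tumours for 16 genes (51.6%) and for 13.5% of all genes. These counts include dim signals. The median SD on the log2 scale was 0.71 in tumours, 0.48 in pre-transformed mice and 0.27 in controls over the 31 genes. Over all genes it was 0.42 in tumours, 0.19 in pre-transformed mice and 0.12 in controls.

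**Figure D3:**
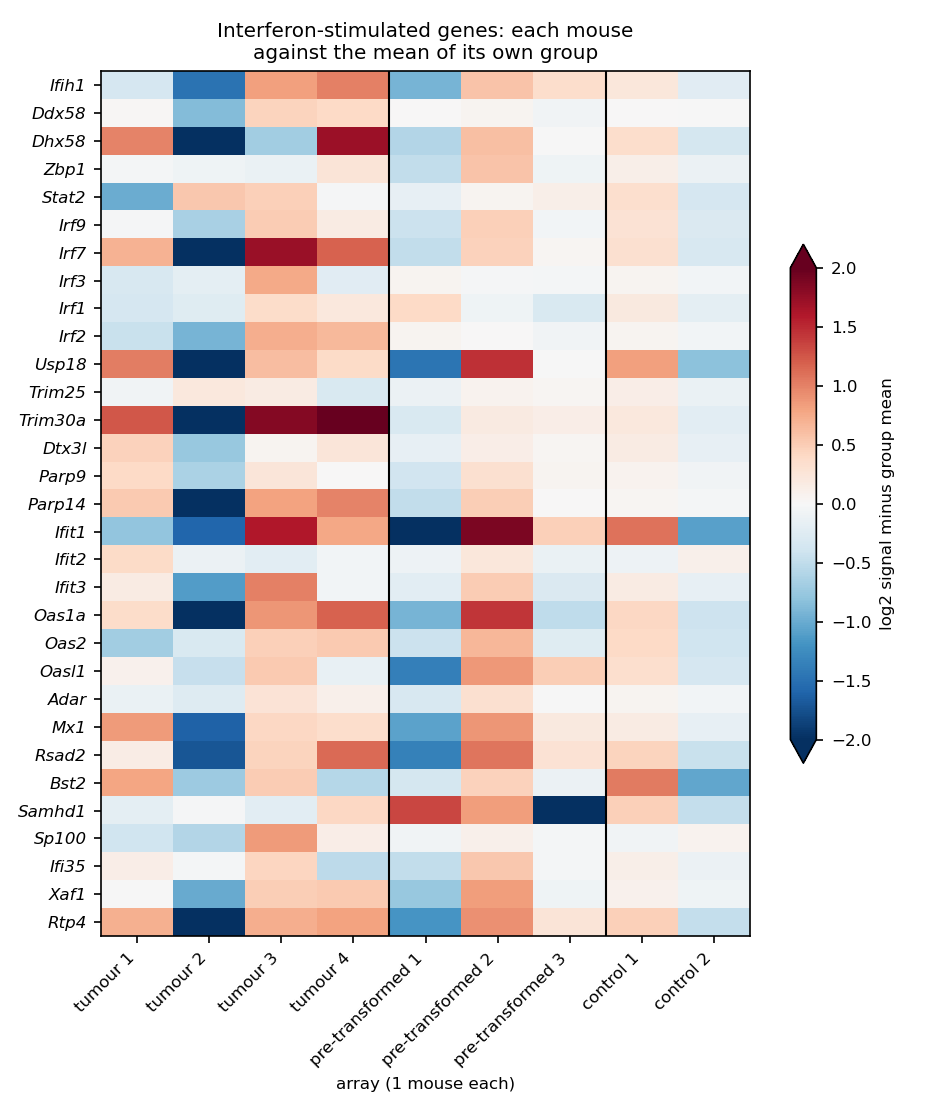
Log2 signal of the 31 genes on each array minus the mean of that array's own group (colour, cut at 2 in either direction), with tumours left, pre-transformed mice in the middle and controls right. Pre-transformed mouse 2 and control 1 are red, and pre-transformed mouse 1, control 2 and tumour 2 blue, for most genes.

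Chosen after their values were seen, Irf2, Irf3, Trim25, Sp100 and Ddx58 differed little between pre-transformed mice 2 and 1 on their brightest probe sets (0.945-fold to 1.15-fold). The dimmer probe sets of Irf3, Trim25, Sp100 and Ddx58 differed more between these mice, those of Irf3 in both directions. Genes with an ISRE core in their window and genes without one can be set side by side. The median log2 difference of pre-transformed mouse 2 over mouse 1 was 0.77 for the 10 tested genes with the core and 0.32 for the 13 without. Tumour 2 minus the mean of the other tumours had a median of -1.73 with the core and -0.34 without, and control 1 minus control 2 had 0.56 and 0.26. Usp18, Rtp4 and the 6 other tested genes without a window had medians of 1.14, -2.42 and 0.52 for these 3 differences. These medians rest on few genes and carry no test.

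The geometric mean signal of the 31 genes was 47.4, 20, 63 and 58.1 in tumours 1 to 4, against 76.1, 155.7 and 102.6 in pre-transformed mice 1 to 3 and 97.5 and 66.7 in controls 1 and 2. The summed signal of 14 myeloid marker genes was 8088, 158.2, 7728 and 7897 in the tumours, 206.4, 571.7 and 357.5 in pre-transformed mice and 377.5 and 254.9 in controls. In both sorted groups the mice stood in the same order for both measures, and tumour 2 was lowest of the tumours in both. Tumours 1, 3 and 4, with the highest myeloid sums, stood below all sorted mice in the geometric mean of the interferon-stimulated genes. Among these tumours the order of the 2 measures was reversed, but their myeloid sums lay close together (7728 to 8088). The median signal of all genes tested was also lower on tumours, at 93.7, 103.2, 115.7 and 109.7 against 128.1 to 129.6 on sorted arrays. Among the tumours, 13 of the 14 markers read lowest on tumour 2. Itgam went the other way, at 113.2 on tumour 2 against 23.4 to 57.7 on the other tumours. No myeloid marker was at 0 on any array. On tumour 2, 11 of the 14 read no higher than the brightest bacterial probe set, Lyz2 at 3.1 and S100a9 at 0.8 among them. The part of myeloid cells in the differences among mice was not tested. The summed signal of 6 B cell markers, at 5543, 257.6, 5334 and 1626 in tumours 1 to 4, was also lowest in tumour 2. It was 1787.8 to 2065.6 in pre-transformed mice and 2811.4 to 3058.9 in controls. Ighm alone read 5140.8, 238.7, 4997 and 1138.6 in tumours 1 to 4. In pre-transformed mice it read 1552.8 to 1831.7 and in controls 2555.3 and 2778.9. Cd79b read lower in every tumour (1.3 to 108.5) than in any sorted mouse (195.8 to 253.9). Cd79a and Ms4a1 went the other way in tumours 1, 3 and 4, at 67.9 to 95.6 and 138.9 to 269.7. Their signals were 0.5 and 5 in tumour 2, and 2.7 to 5.8 and 1.5 to 8.9 in sorted mice.

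**Figure D4:**
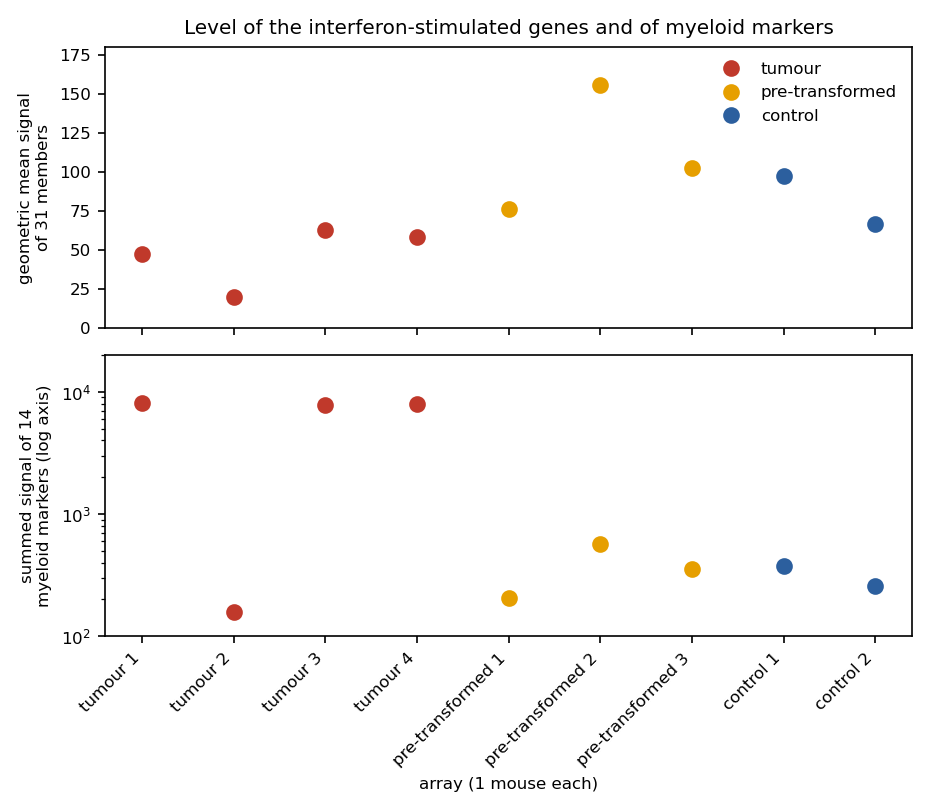
Geometric mean signal of the 31 interferon-stimulated genes (top, linear axis starting at 0) and summed signal of 14 myeloid markers (bottom, log axis), 1 point per array. Tumours 1, 3 and 4 have myeloid sums of 7728 to 8088 and tumour 2 of 158.2, while all 4 tumours lie below all sorted mice in the top panel. The median signal of all genes tested, not drawn, was 93.7 to 115.7 on tumours and 128.1 to 129.6 on sorted arrays.

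The mice were not all of 1 sex. Pre-transformed mouse 1 and tumour 4 were male by the Y-linked gene Eif2s3y (614.5 and 540.1, against 0.3 to 8 on the other arrays), and mouse 1 was the lowest of its group. Its part was not tested. Of 9 markers of DP thymocytes, 8 were called lower in tumours than in pre-transformed cells, where 31% of all genes were. Cd4 was the marker not called lower, at 1008 to 1725 in tumours, 832.1 to 1109.8 in pre-transformed mice and 706.6 and 738.3 in controls. Ptcra, the pre-T cell receptor α chain, read 2.7 to 6.8 in tumours, against 213.6 to 250.6 in pre-transformed mice and 371.9 and 318.2 in controls. The summed signal of 9 DP markers was 10638 to 15067 in tumours, 25930.1 to 27921 in pre-transformed mice and 24298 to 25551 in controls. By the labels at least 95% of tumour cells carried CD8 and CD4, and over 98% of sorted cells were DP. Why the DP markers read lower was not tested. For cell types without such a label, fewer cells and less RNA per cell cannot be told apart in bulk samples.

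Upstream of these genes, the ligands were near background. Of 9 interferon genes named, 8 were dim in every group, with Ifnb1 at 5.2 to 13.6 in tumours, 5.6 to 10.1 in pre-transformed mice and 4.4 and 5.3 in controls. Ifnz, which encodes interferon ζ of the mouse, was the exception in sorted cells, at 61.2 to 72.6 in pre-transformed mice and 72.7 and 92.5 in controls, and fell to 2.6 to 21.4 in tumours (log2 change -2.58, adjusted p = 0.0066, at least 1.83-fold lower than in pre-transformed cells).

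Receptor chains were also lower in tumours. Of 6 tested, 4 fell in tumours in both comparisons: both chains of the type I receptor and both of the interferon γ receptor. Of all genes, 31% fell against pre-transformed cells and 25.2% against controls. Ifnar1 read 95.7 to 115.1 in tumours, against 193.3 to 235.8 in pre-transformed mice and 248.9 and 270 in controls (log2 change -0.99, adjusted p = 0.000517 against pre-transformed cells). Ifnar2 read 64.2 to 114.5 in tumours, against 266.7 to 286.7 in pre-transformed mice and 242.9 and 244.5 in controls (log2 change -1.68, adjusted p = 0.000294). Ifngr2 differed already before transformation, at 100.5, 71.8 and 81.6 in pre-transformed mice against 176.4 and 162.3 in controls, a fall of 1.01 on the log2 scale (SE 0.18, adjusted p = 0.0336).

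Of 10 genes of signal transduction and its inhibitors, 8 fell against pre-transformed cells and 1 rose, where 31% of all genes fell and 23.9% rose. Tyk2, the kinase bound to Ifnar1, averaged 60.2 in tumours, 168 in pre-transformed cells and 144 in controls (log2 change -1.48, adjusted p = 0.00033). Socs1, a feedback inhibitor of the kinases, averaged 57.7 in tumours, 253 in pre-transformed cells and 256 in controls (log2 change -2.13, adjusted p = 0.00175). Ptpn2, a phosphatase that switches off STAT proteins, was the gene that rose, to a mean of 1538 in tumours against 743 in pre-transformed cells and 693 in controls (log2 change 1.05, adjusted p = 0.000216).

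Among 10 genes that induce interferon, 5 fell and 2 rose against pre-transformed cells, where 31% of all genes fell and 23.9% rose. Tbk1, the kinase of Irf3, averaged 402 in tumours, 956 in pre-transformed cells and 810.4 in controls (log2 change -1.25, adjusted p = 0.000105). The cytosolic DNA sensor gene Cgas and Sting1, which relays its signal, were the pair that rose against pre-transformed cells, Cgas by at least 2.22-fold (log2 change 1.67, adjusted p = 0.0132) and Sting1 by at least 1.53-fold (1.43, adjusted p = 0.00426). Sting1 read 98.6, 48.5, 81.7 and 51.1 in tumours, against 31, 22.2 and 22.4 in pre-transformed mice and 20.9 and 30.5 in controls. Cgas read 110.7, 34.8, 125.4 and 183.4 in tumours, against 28.2, 30.6 and 32.8 in pre-transformed mice and 41.1 and 49.7 in controls, so that tumour 2, alone among the tumours, lay under the controls.

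Another 33 interferon-stimulated genes outside the list were tested, and 14 fell and 3 rose against pre-transformed cells, beside the 31% of all genes called lower and 23.9% called higher. Their median log2 change was -0.88. Uba7, the enzyme that activates ISG15, averaged 30.4 in tumours, 320.3 in pre-transformed cells and 262 in controls (log2 change -3.40, adjusted p = 0.000113). Lgals9, galectin 9, was one of those that rose, with means of 2159 in tumours, 906 in pre-transformed cells and 872 in controls (log2 change 1.25, adjusted p = 0.00143). Igtp, a GTPase induced by interferon γ, read 47.9 to 188.3 in tumours and 937.4 and 854.5 in controls. It had the order of mouse 2 over 3 over 1, at 612.6, 1904.2 and 1462.7 in pre-transformed mice 1 to 3. Other genes of the 33 did not, such as Trim21 (542.1, 489.6 and 515) and Uba7 (310.3, 313.1 and 338.2). The order was not counted over the 33 genes.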

How the data were processed

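RNA of 9 mice was measured on 1 oligonucleotide array each. The authors deposited MAS5 signal intensity of 45101 probe sets on a linear scale, and MAS5 is named, with no version, per the submitters' processing notes. On the values, each array had a mean of 100 without its lowest and highest 2%, 218 values were 0, and array medians were 9.9 to 15.2. The number of arrays limits the precision.

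Signals were taken to log2 with a floor of 0.1 and no further normalization. Control probe sets (64) were left out, and probe sets at or above the array median on at least 2 arrays were kept. Probe sets with 1 symbol in the platform annotation (34945, against 932 with several and 9160 with none) gave 18193 genes, of which 11644 were tested. Group signals are geometric means and SDs were taken after log2. The test was limma 3.58.1 (R 4.3.3) with a signal-dependent prior (trend) in eBayes and Benjamini-Hochberg adjustment at 0.05. The comparison of sorted cells used only their 5 arrays, and tumour comparisons all 9.

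Full values are given for the 8 called genes with the largest falls and the gene that rose in tumours against pre-transformed cells, and for Stat2, Irf9 and Irf7. Other genes are named by role, some after their values were seen. The genes, lists and tests were chosen with earlier results of these data known, and tumour 2 as the only tumour was added after seeing the data. Replicate numbers name different mice: same-numbered arrays had correlations of deviations of -0.024 to 0.085, and no pairing was used. Alternatives were quantile normalization, median centring, no filter, a stricter filter, a common floor, an offset of 16, averaged probe sets, no cross-hybridisation suffixes, a constant prior spread (no trend), another set of arrays in the fit, the replicate number as a block and each array left out.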

Additional observations from a re-analysis of the deposited data

Results flagged for a closer look

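Among tumour arrays, a sample was set apart by a gap to its nearest neighbour that was large for the range of the group (Dixon's test), which chance gives in about 1 in 20 groups. It did so for 4 of 33 genes. The share of all genes set apart in this way was not determined, so the count is not read as particular to these genes. For 13.5% of all genes tested, tumour 2 lay at least 2-fold below the mean of the other tumours. Tumour 3 read 469.5 for Irf3, against 223.1 to 242.4 in the other tumours. Tumour 2 read 0.9 for Trim30a (others 75.7 to 134.7), 4.8 for Parp14 (others 34 to 47) and 5.2 for Rtp4 (others 40.1 to 43). In the same tumour the myeloid markers summed to 158.2, against 7728 to 8088 in the others, and the part of other cells in these values was not tested.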

How the results depend on the processing

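No interferon-stimulated gene was called between pre-transformed and control cells under any alternative. Against pre-transformed cells, 12 to 22 genes were called lower in tumours (main 17), with 12 without pre-transformed 2. The share of all genes called in either direction was 37.5% to 63.8% over these alternatives, and 46.2% without pre-transformed 2. With each array left out, 0 to 3 genes were called higher. The count of genes called higher (main 1) was 2 with no filter, and 0 with a common floor, without cross-hybridisation suffixes and with tumour 2 alone. Against controls, 11 to 15 genes were lower with 1 tumour left out (main 13), and 0 to 3 higher (main 2). In these fits 43.3% to 49% of all genes were called in either direction. Fewer genes were called lower without 1 control, as given above. Among the processing alternatives the count called lower against controls was 9 with averaged probe sets, beside 43.9% of all genes called. It was 10 with no trend (43.9%), 10 with fewer arrays in the fit (36.2%) and 16 with median centring (46.2%). The count called higher was 1 with median centring, with no filter, with a stricter filter, without suffixes, with no trend, with fewer arrays in the fit and with the replicate block, and 0 with a common floor and with tumour 2 alone. With replicate number as a block (replicate block), 1 gene was higher and 17 lower against pre-transformed cells, and 1 higher and 13 lower against controls. Trim25 against controls turned to 0.013 on the log2 scale (adjusted p = 0.974) with the mean of its probe sets. In every alternative that tested the gene, 11 of 18 calls against pre-transformed cells held. These were Zbp1, Irf9, Irf3, Irf1, Irf2, Dtx3l, Parp9, Adar, Sp100, Xaf1 and Rtp4. Against controls 5 of 15 held (Irf3, Irf2, Dtx3l, Parp9 and Sp100). The only Irf2 probe set carries a cross-hybridisation suffix, so the alternative without suffixes did not test Irf2. Median centring moved the median of all genes to -0.38 and -0.46 in the tumour comparisons, beside -1.82 and -1.41 for the interferon-stimulated genes. The share of all genes called between pre-transformed and control cells was 0.00859% with no trend. Dhx58, Oas2, Oasl1 and Mx1 were dim in all groups, which limits what their values show.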
